A study of Apis mellifera with 12 samples.

Results

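The let-7 complex is a group of 3 microRNAs (miRNAs), ame-let-7, ame-miR-100 and ame-miR-125 (let-7, miR-100 and miR-125 from here on), measured here in fat body of the honey bee, Apis mellifera. Its members were taken by name as 3 of the 168 bee miRNA probes of an array. The rule itself uses no measured value, though earlier results of these data were known when it was set. All 3 were detected on all 12 arrays, as were 35 probes in all, so none of them entered the comparison through one group alone. Pools of dsRNA-Vg bees, which had received double-stranded RNA (dsRNA) against vitellogenin, were set against pools of dsRNA-GFP bees, which had received dsRNA against green fluorescent protein as a sham injection. Vitellogenin is the precursor of egg yolk and is made in the fat body, in sterile workers too. Every bee of both groups was injected as a newly emerged worker with 2 µL of dsRNA at 10 µg/µL and was 15 days old when sampled. There were 6 pools in each group, each of 5 bees that gave 400 ng of small RNA apiece, and 1 array per pool. The tissue was the abdominal carcass lined with fat body, which also holds muscle and epidermis, and bees without an injection were not among the samples. The labels call the bees foragers and name no strain or colony, and the knockdown of vitellogenin was not analysed here.

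A miRNA is a short RNA that guides a silencing complex to messenger RNAs that pair with its seed, the bases near its 5′ end. In the fly, let-7, miR-100 and miR-125 are cut from one shared transcript whose level climbs under the moulting hormone ecdysone at metamorphosis. let-7 was found in the worm as a switch to adult cell fates, miR-125 is the relative of the worm timing miRNA lin-4, and miR-100 belongs to the miR-10 family. In adult flies the complex stays expressed in neurons and muscle, among other tissues, and loss of miR-125 shortens life.

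The mature sequences that the array was designed against, read from the scanner files, are shown with the seed (bases 2 to 8, counted from the 5′ end) in capitals, because the seed sets the targets and the rest sets which other miRNAs a probe could capture.
let-7: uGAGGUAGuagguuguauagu
miR-100: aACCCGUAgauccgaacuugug
miR-125: cCCCUGAGacccuaacuuguga
The 3 seeds differ, and none of the other array miRNAs carries any of them. At the 3′ end miR-100 and miR-125 are alike, as the next pair of lines shows with their longest common run of 8 bases in capitals.
miR-100: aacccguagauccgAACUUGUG
miR-125: ccccugagacccuAACUUGUGa
These 2 sequences matched at 16 positions in their best alignment without gaps, against 8 positions for let-7 and miR-100 and 10 for let-7 and miR-125. Of all array miRNAs, miR-10 was the nearest to miR-100, with 18 matching positions and a common run of 11 bases, given in capitals here.
miR-10: acccuGUAGAUCCGAAuuugu
miR-100: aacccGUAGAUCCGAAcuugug
The probe for miR-10 was detected on 4 of 12 arrays and read at most 46 in the deposited value table. The nearest array miRNAs to let-7 were miR-3775, with 12 matching positions, and miR-190, with 11. miR-3775 was detected on 4 arrays and miR-190 on 7. By RefSeq's gene table for Amel_HAv3.1, the genes Mir125, Mirlet7 and Mir100 follow each other in that order, with 0 other genes between them. The files name no genome build, so coordinates are not given.

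Signals were read in 3 ways. The scanner value is the median pixel intensity of a spot, and each miRNA had 18 spots per array. The normalized value is the mean log2 intensity of those spots after background correction and quantile normalization between arrays. The deposited value is the authors' own processed intensity, on a linear scale. Hybridisation is not equally strong for every probe, so a level or ratio is compared between pools and never read as an abundance of one miRNA against another. Empty spots had medians of 150.2 to 419.4 on dsRNA-Vg arrays and 247.9 to 491.3 on dsRNA-GFP arrays, and 44 to 163 and 37 to 168 miRNA probes were detected per array. The spiked control PUC2PM read 11.18 ± 0.74 on dsRNA-Vg arrays and 9.77 ± 0.62 on dsRNA-GFP arrays (log2 after background correction only, SD, n = 6 each, two-sided exact permutation p = 0.00866). The part of these array differences in the group comparison was not tested. The correlations given further on were taken after removal of group means, so they cannot address a difference between groups. Of miRNAs linked to fat body metabolism, miR-8, miR-277 and miR-278 were detected on all 12 arrays and miR-14 on 7. The muscle miRNAs miR-1 and miR-133 were also detected on all 12, while the 4 nervous system markers were detected on 5 to 9 arrays and the 2 ovary markers on 8 and 9. On the array of dsRNA-GFP pool 1 all 168 probes counted as detected, so such counts do not by themselves show presence. The nervous system and ovary markers had group means of 6.89 to 7.19 in normalized values. Against the dimmer miRNA probes in place of empty spots, 49 probes were detected on at least 6 arrays, beside 127 against empty spots. The 3 midgut miRNAs, miR-750, miR-1175 and miR-281, were detected on 10 to 12 arrays. They had a summed deposited intensity of 175 to 5412 in dsRNA-Vg pools and 223 to 6294 in dsRNA-GFP pools, and their part in the results was not tested.

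let-7 ranked between 22 and 32 among the 168 probes of an array in the deposited table, miR-100 between 24 and 30, and miR-125 between 28 and 47. In that table let-7 made up 0.211% ± 0.048 of the summed intensity in dsRNA-Vg pools and 0.344% ± 0.087 in dsRNA-GFP pools (SD, n = 6 each). The corresponding shares were 0.245% ± 0.052 and 0.270% ± 0.049 for miR-100, and 0.108% ± 0.015 and 0.1004% ± 0.056 for miR-125. Before any correction, the median spot of let-7 stood at 1.33 to 3.10 times the median of the empty spots over the 12 arrays. That of miR-100 stood at 1.46 to 2.83 times, and that of miR-125 at only 1.16 to 1.52 times. Set against the dimmer miRNA probes in place of empty spots, miR-125 was not detected on the array of dsRNA-GFP pool 1, while let-7 and miR-100 were detected on all 12.

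Setting dsRNA-Vg against dsRNA-GFP asks whether lowering vitellogenin by RNA interference shifts fat body miRNAs. Among the 3 members, 0 passed the threshold of 0.05 in limma after Benjamini-Hochberg adjustment over the 127 miRNAs tested. The share called over all 127 was 1.57%, namely miR-3739 and miR-3776, which both rose. Groups that do not overlap were found for 2.36% of the 127 in normalized values and for 0 of the 3 members. let-7 was lower, miR-100 near equal and miR-125 higher in dsRNA-Vg pools, and the median of the 3 log2 fold changes was 0.08 beside -0.01 over all 127. In pooled tissue, fewer cells that hold a miRNA and less of it per cell cannot be told apart.

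let-7, the switch to adult fates in the worm, had a normalized log2 intensity of 8.05 to 8.75 in dsRNA-Vg pools with a median of 8.41, and of 8.11 to 9.38 in dsRNA-GFP pools with a median of 8.70. The groups overlapped, since dsRNA-GFP pool 3, at 8.11, lay under every dsRNA-Vg pool but pool 6. The highest values were those of dsRNA-GFP pools 5 and 6, at 9.13 and 9.38. By limma the log2 fold change was -0.33 (SE 0.20, 95% interval -0.76 to 0.10, adjusted p = 0.432). Of the 127 tested miRNAs, 5 had a lower log2 fold change than let-7. The unadjusted limma p was 0.122, and 4.72% of the miRNAs had one under 0.05 with a lower value in dsRNA-Vg. In the deposited table let-7 read 244 to 442 in dsRNA-Vg pools with a median of 339, and 385 to 762 in dsRNA-GFP pools with a median of 504. Pools 1, 2, 3 and 6 of dsRNA-Vg were lower than all dsRNA-GFP pools there, and only dsRNA-GFP pool 3, at 385, lay within the range of the dsRNA-Vg pools. The log2 fold change in that table was -0.68 (SE 0.21, 95% interval -1.13 to -0.23), with an unadjusted limma p of 0.00591 and an adjusted p of 0.187. An unadjusted p under 0.05 with a lower value in dsRNA-Vg was found there for 7.09% of the tested miRNAs. Back on normalized values, let-7 without dsRNA-GFP pool 3 had a log2 fold change of -0.46 (limma adjusted p = 0.236), and without dsRNA-GFP pool 6 one of -0.20 (limma adjusted p = 0.61). With cyclic loess in place of quantile normalization it was -0.53 (unadjusted limma p = 0.00314, adjusted p = 0.109).

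miR-1, a muscle miRNA, had the pattern most like that of let-7, with a correlation of 0.72 over the 12 pools after removal of group means. It was picked as the highest of 34 candidates, so this is a description without a test. In the deposited table miR-1 read 1154 to 2714 in dsRNA-Vg pools, with a median of 2150, and 1190 to 4753 in dsRNA-GFP pools, with a median of 3526. Pool 3 of dsRNA-GFP, the lowest of its group for let-7, was also the lowest for miR-1, and pool 6 was the highest of that group for both. For miR-1 the log2 fold change was -0.44 (SE 0.32, limma adjusted p = 0.535), and that of the other muscle marker, miR-133, was 0.44 (SE 0.16, limma adjusted p = 0.218). miR-133 had a correlation of 0.24 with let-7. The summed deposited intensity of both muscle markers was 1835 to 3225 in dsRNA-Vg pools and 1618 to 5224 in dsRNA-GFP pools. Both were detected on every array, and the part of muscle in the values of let-7 was not tested.

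miR-100, the member of the miR-10 family, had a normalized log2 intensity of 8.27 to 8.81 in dsRNA-Vg pools with a median of 8.41, and of 8.04 to 8.84 in dsRNA-GFP pools with a median of 8.40. The ranges lay almost on top of each other, with the lowest value in dsRNA-GFP pool 1 and the highest in dsRNA-GFP pool 6. Its log2 fold change was 0.08 (SE 0.14, 95% interval -0.21 to 0.38, limma adjusted p = 0.802). Deposited values of miR-100 were 286 to 504 in dsRNA-Vg pools with a median of 399.5, and 351 to 545 in dsRNA-GFP pools with a median of 420.5. There the log2 fold change was -0.13 (SE 0.19, limma adjusted p = 0.808), and the sign was also negative with cyclic loess (-0.12). The interval of 0.863-fold to 1.30-fold in the normalized values bounds how far apart the groups may lie under that processing.

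miR-125, the relative of lin-4, had the smallest p of the members in the normalized values, though not in the deposited table or with cyclic loess. Its normalized log2 intensity was 7.57 to 7.80 in dsRNA-Vg pools with a median of 7.76, and 7.34 to 7.68 in dsRNA-GFP pools with a median of 7.5. Pools 1 to 4 of dsRNA-Vg lay above every dsRNA-GFP pool, and pools 5 and 6 of dsRNA-Vg lay among them. The log2 fold change was 0.21 (SE 0.07, 95% interval 0.05 to 0.37), with an unadjusted limma p of 0.0147 and an adjusted p of 0.218. At an unadjusted p under 0.05, 9.45% of the 127 miRNAs had a higher value in dsRNA-Vg. Deposited values of miR-125 were 137 to 213 in dsRNA-Vg pools with a median of 179, and 78 to 326 in dsRNA-GFP pools with a median of 137.5. The log2 fold change in that table was 0.27 (SE 0.29, limma adjusted p = 0.721), with an SD of 0.21 in dsRNA-Vg pools and 0.72 in dsRNA-GFP pools on the log2 scale.

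**Figure D1:**
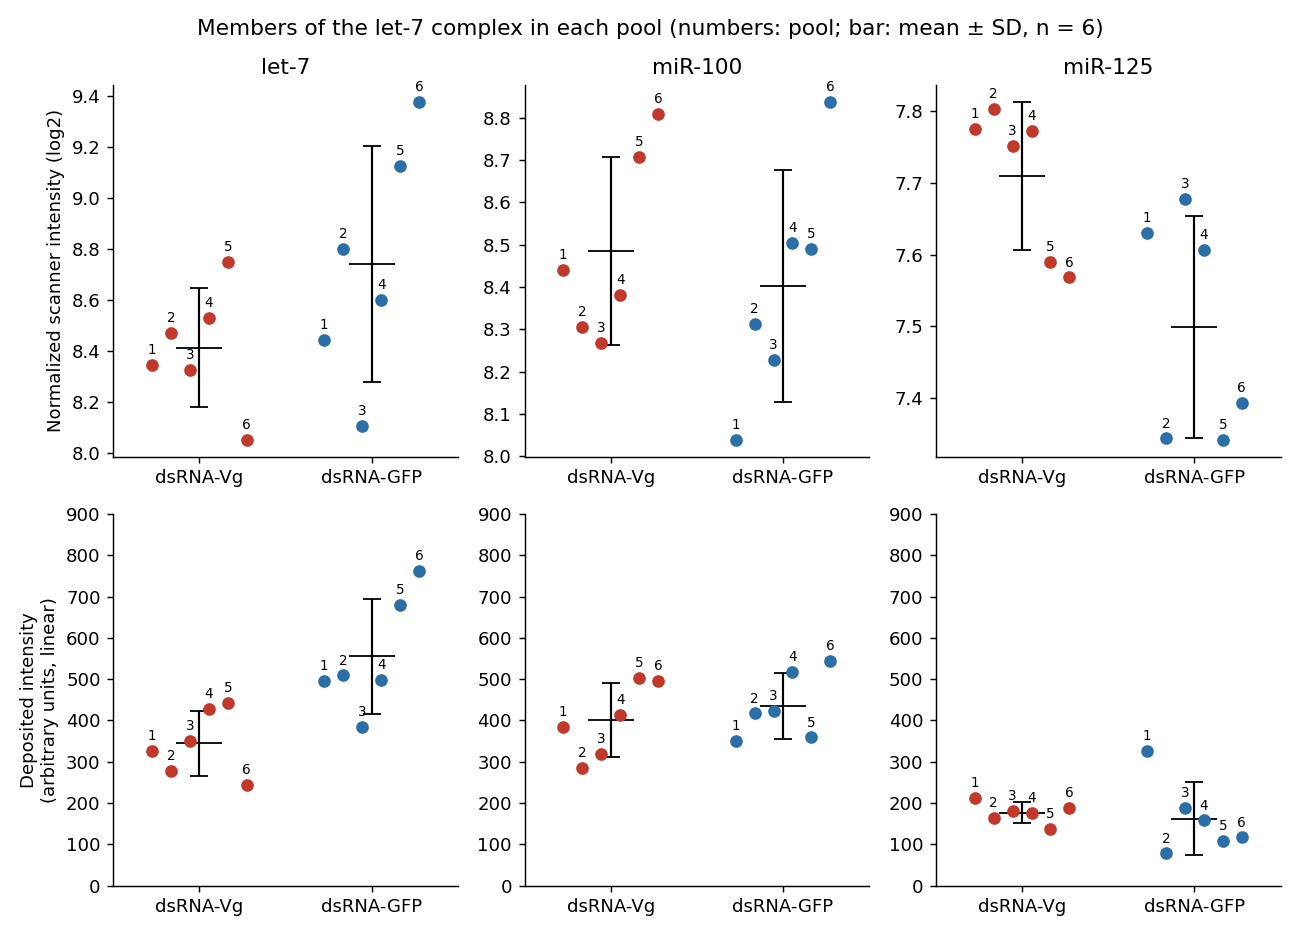
Normalized scanner intensity (upper row, log2) and deposited intensity (lower row, linear, arbitrary units) of let-7, miR-100 and miR-125 in each pool, with the pool number above each point and bars for mean ± SD (n = 6 per group). The groups overlap in all 6 panels, least for let-7 in the deposited table, where dsRNA-GFP pool 3 alone reaches into the dsRNA-Vg range.

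The highest deposited value of miR-125 stood beside bright single spots. On the array of dsRNA-GFP pool 1, 2 of its 18 spots read 1865 and 983.5, while the other 16 read 522.7 to 701.9. Both bright spots lay in 1 row of the array, and the 5 miRNA spots around the brighter one read 0.878 to 0.985 times the median of their own probe. The coefficient of variation over the 18 spots was 43.3% there, against 4.36% to 9.50% for miR-125 on the other 11 arrays. The deposited intensity of miR-125 was highest in that pool, at 326, and its normalized log2 intensity was 7.63 with all spots and 7.30 without the bright ones. With every spot over 1.5 times the median of its probe left out, a step chosen after seeing the data, the log2 fold change of miR-125 was 0.27 (limma, unadjusted p = 0.00402, adjusted p = 0.104). With the median of the 18 spots in place of the mean it was 0.32 (limma, unadjusted p = 0.00323, adjusted p = 0.103). Such bright spots made up 0.154% of all miRNA spots, and let-7 and miR-100 had 0 of them.

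The sign of let-7 was negative in all 14 other settings tried over all pools, from -0.72 to -0.23, and in the 12 fits that each left out 1 pool. The probe filters, the replicate block and the removal of bright spots left its estimate at -0.33. In those settings the sign could not change, so they say nothing about how stable it is. The signs of miR-100 and miR-125 depended on the normalization between arrays. With arrays scaled to the probes detected on all of them, the log2 fold changes were -0.34 for miR-100 and -0.22 for miR-125, while the median of all tested miRNAs itself lay at -0.41. Without normalization between arrays they were -0.15 and -0.03, beside a median of -0.22. Beside those medians, miR-125 lay above and let-7 below in both settings. None of the 3 members passed the threshold after adjustment in any of the 26 settings.

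**Figure D2:**
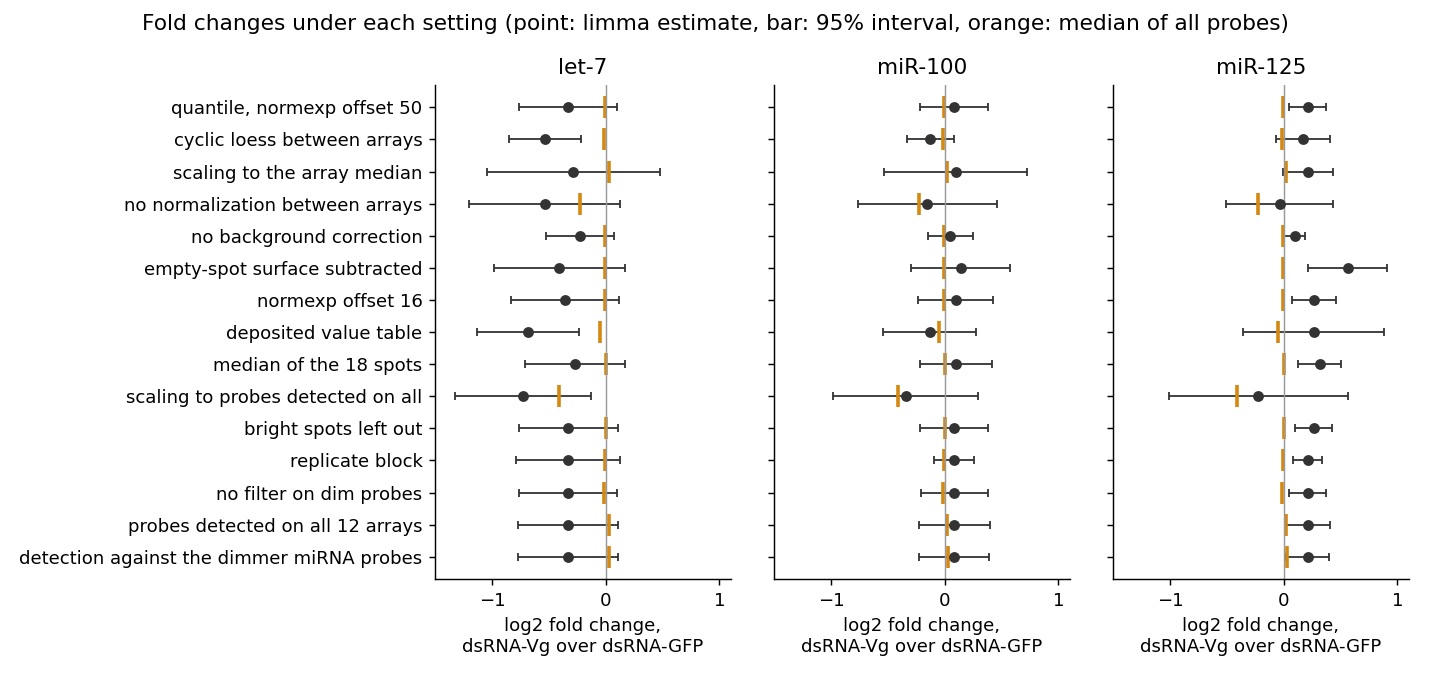
Log2 fold change of dsRNA-Vg over dsRNA-GFP for each member (points, with 95% intervals from limma) under 15 settings of the processing, with the median of all tested miRNAs in orange. All points of let-7 lie left of zero, and miR-100 and miR-125 cross zero with the choice of normalization.

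Ratios between members within an array do not depend on a scale factor shared by the whole array, and so were compared separately. Background and quantile normalization are not such factors. Over the other settings, the group difference in let-7 over miR-100 ran from -0.55 to -0.28. The ratio of let-7 to miR-100 was lower in dsRNA-Vg pools. Its log2 value was -0.76 to 0.16 in dsRNA-Vg pools with a median of 0.05, and -0.12 to 0.64 in dsRNA-GFP pools with a median of 0.45. The groups overlapped through dsRNA-GFP pools 3 and 4, at -0.12 and 0.10, while dsRNA-GFP pools 1, 2, 5 and 6 lay above every dsRNA-Vg pool. The means were -0.07 ± 0.35 and 0.34 ± 0.29 (SD, n = 6 each). Their difference was -0.41 on the log2 scale (two-sided exact permutation p = 0.0368). The 95% interval, from a limma fit over all pairs, was -0.80 to -0.03. Among the ratios of all 8001 pairs of tested miRNAs, 16.3% had an exact permutation p under 0.05, and the value adjusted over all pairs was 0.277. One member ratio under 0.05 is read against that share. Without dsRNA-Vg pool 6 the difference was -0.28 (exact permutation p = 0.0758), and p also exceeded 0.05 without dsRNA-Vg pool 1 or dsRNA-GFP pool 1, 2, 5 or 6. Deposited values gave a difference of -0.55 (exact permutation p = 0.0346, adjusted over all pairs 0.292), beside 14.9% of pairs under 0.05.

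The ratio of let-7 to miR-125 had a log2 value of 0.48 to 1.16 in dsRNA-Vg pools with a median of 0.62, and of 0.43 to 1.99 in dsRNA-GFP pools with a median of 1.23. The dsRNA-GFP pools spread over the whole range of the dsRNA-Vg pools and beyond it. The difference of means was -0.54 (limma 95% interval -1.08 to -0.00083, two-sided exact permutation p = 0.0779, adjusted over all pairs 0.358). It was -0.95 in the deposited table (exact permutation p = 0.0628). Only 4 of the 26 settings brought p under 0.05. The probe filters could not change this ratio, and scaling of whole arrays could only repeat its unnormalized value, so the 26 are not separate checks. Among these were -0.70 with cyclic loess (exact permutation p = 0.0195) and -0.60 with bright spots left out (exact permutation p = 0.0476). Another was -0.70 once pool 3 of dsRNA-GFP was dropped (exact permutation p = 0.0152). Dropping pool 6 of that group gave -0.39 (exact permutation p = 0.152). With arrays not normalized against each other it was -0.50 (exact permutation p = 0.158). These values stand beside 16.3% of all pairs with a p under 0.05 in normalized values. The ratio of miR-100 to miR-125 differed by -0.13 (limma 95% interval -0.55 to 0.29, exact permutation p = 0.528). Its log2 values were 0.50 to 1.24 in dsRNA-Vg pools and 0.41 to 1.44 in dsRNA-GFP pools. Over all 8001 pairs, limma with adjustment over all of them called 3.20%, and 3.32% in the deposited table. Of the 256 pairs in normalized values, 229 held miR-3739 or miR-3776, and 0 of the 3 member ratios passed in either table.

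**Figure D3:**
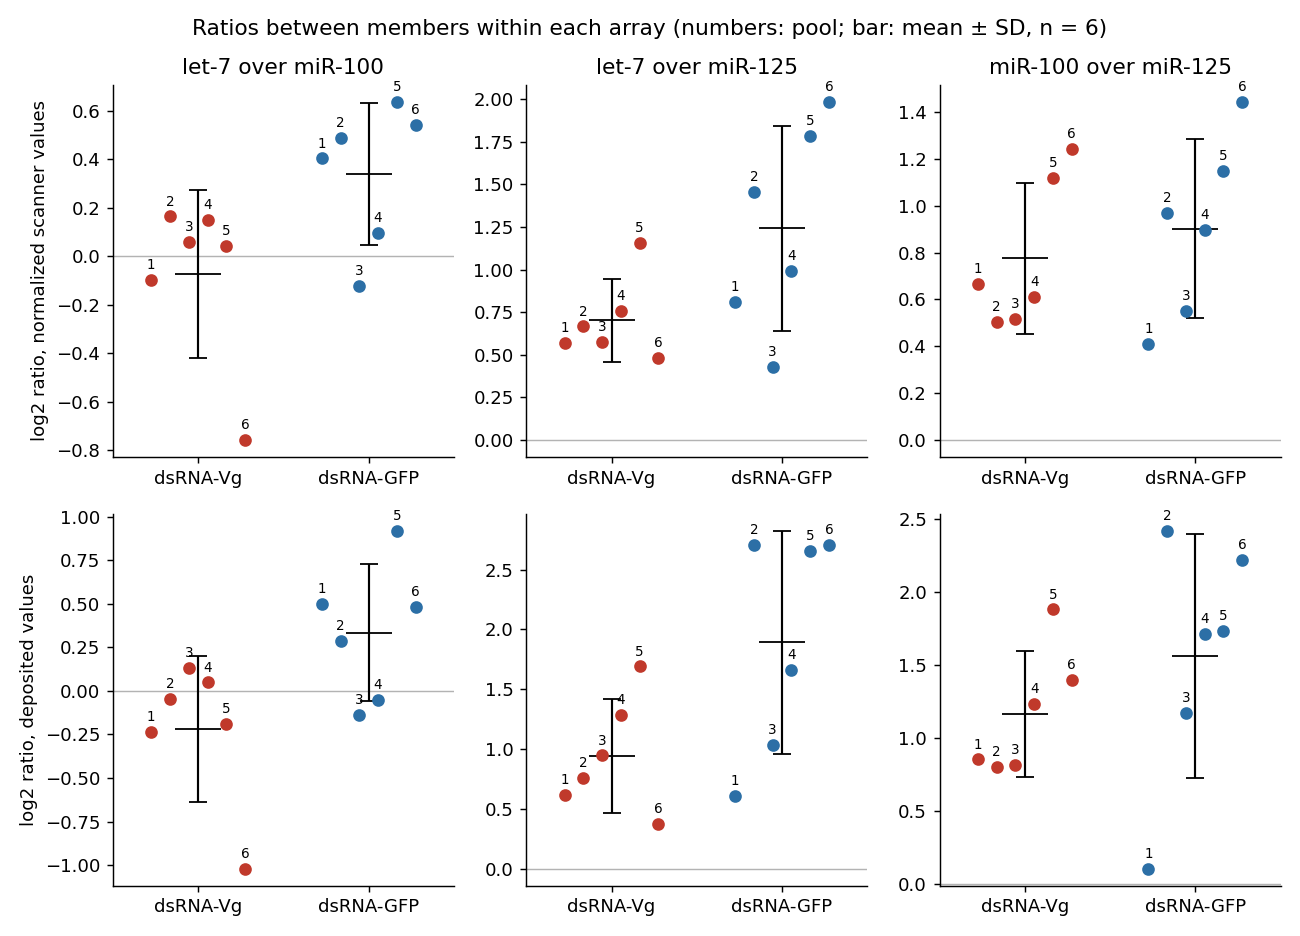
Log2 ratios between members within each array from normalized scanner values (upper row) and deposited values (lower row), one point per pool with its number, and bars for mean ± SD (n = 6 per group). The dsRNA-Vg pools of let-7 over miR-100 sit below 4 of the 6 dsRNA-GFP pools in the upper row, and dsRNA-Vg pool 6 stands apart at -0.76.

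The spots of let-7 and miR-100 lie in the same 3 columns and 3 rows apart, so they could be set against each other position by position without any correction. Among dsRNA-Vg arrays, let-7 was the brighter of the pair at 4, 16, 12, 16, 11 and 0 of 18 positions in pools 1 to 6. Among dsRNA-GFP arrays it was the brighter at 18, 18, 6, 12, 18 and 18 positions. Pools 1, 2, 5 and 6 of dsRNA-GFP thus had the same sign at every position, and dsRNA-Vg pool 6 had the opposite sign at every position. The mean log2 ratio of the spots was -0.39 in dsRNA-Vg pool 6 (SE 0.02 over 18 positions) and 0.54 in dsRNA-GFP pool 5 (SE 0.03). The spots of an array share its hybridisation, so their SE covers only the noise within an array and they are not replicates of a group. These intensities also hold the background of each array, and the log2 ratio of dsRNA-Vg pool 6 was -0.76 in normalized and -1.02 in deposited values.

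**Figure D4:**
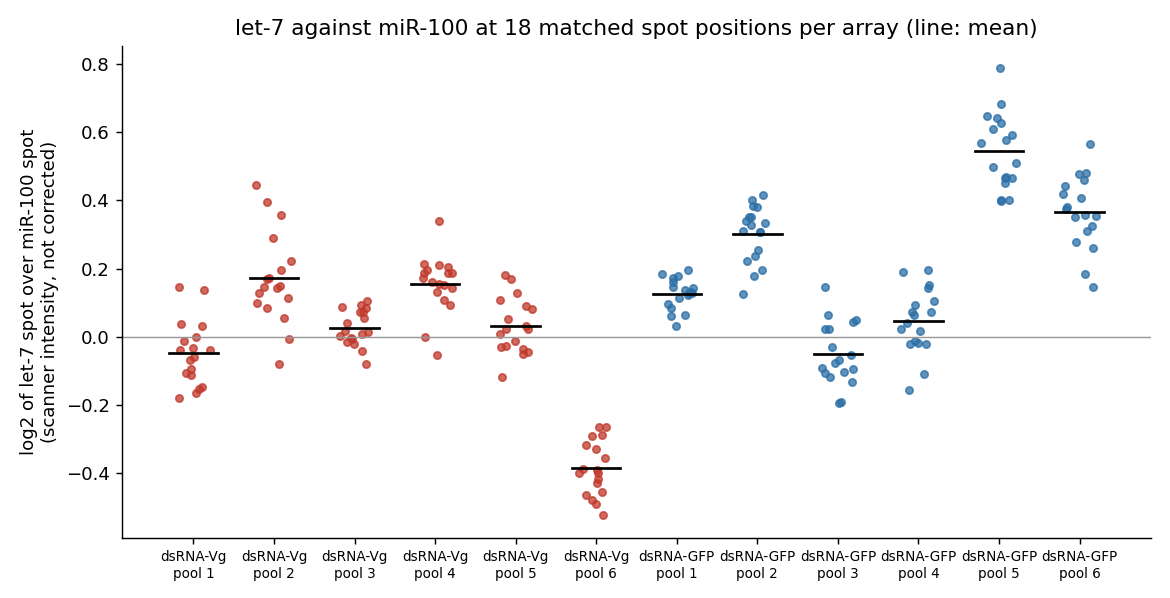
Log2 ratio of the let-7 spot to the miR-100 spot at 18 matched positions of each array, from uncorrected scanner intensities, with the mean of each array as a line. All positions lie below zero in dsRNA-Vg pool 6 and above zero in dsRNA-GFP pools 1, 2, 5 and 6.

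Because the members are neighbours in the genome, their co-variation between pools was measured, as correlations of log2 values after removal of group means (9 correlations in all, with 100000 permutations within groups). let-7 and miR-100 had a Pearson r of 0.51 in normalized values (permutation p = 0.131, adjusted p = 0.236, n = 12) and a Spearman rho of 0.37 (permutation p = 0.271). Without the 2 pools farthest from the median of let-7, dsRNA-GFP pools 6 and 3, r was 0.17 (permutation p = 0.644). Within the groups, r was -0.17 in dsRNA-Vg pools (exact permutation p = 0.738) and 0.80 in dsRNA-GFP pools (exact permutation p = 0.0556, n = 6 each), and the difference between these was not tested. Without dsRNA-Vg pool 6, low in let-7 and high in miR-100, r over the other pools was 0.79 (permutation p = 0.0136). That was the highest of the 12 values with 1 pool left out, and 1 of the 12 had a permutation p under 0.05. The lowest was 0.23, without dsRNA-GFP pool 6 (permutation p = 0.5). Leaving out a pool that is low in 1 member and high in the other raises r by itself. Of all tested pairs, 89.5% had a lower r, and 6.25% had an r above 0 at a permutation p under 0.05.

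Without normalization between arrays the same pair had an r of 0.85 (permutation p = 0.00186, adjusted p = 0.0167) and a rho of 0.83 (permutation p = 0.00199, adjusted p = 0.0179), and an r of 0.71 without the 2 farthest pools (permutation p = 0.0325). Such values share the brightness of the whole array. The median r over all tested pairs was then 0.74, 57.4% of pairs had an r above 0 at a permutation p under 0.05, and 58.3% of pairs had a lower r than let-7 and miR-100. Deposited values gave an r of 0.22 (permutation p = 0.504) and a rho of 0.34 (permutation p = 0.303), where 5.85% of pairs had an r above 0 and 5.26% one below 0 at a permutation p under 0.05. With cyclic loess r was -0.15 (permutation p = 0.644), so the sign of this relation was not the same under every normalization.

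miR-125 had a negative r with both other members in normalized values. This was -0.60 with let-7 (permutation p = 0.0927, adjusted p = 0.209, rho -0.55, permutation p = 0.136) and -0.67 with miR-100 (permutation p = 0.0288, adjusted p = 0.13, rho -0.52, permutation p = 0.104, n = 12). Without the 2 pools farthest from the median of let-7, r with let-7 was -0.41 (permutation p = 0.314). Without the 2 farthest from the median of miR-100, r with miR-100 was -0.58 (permutation p = 0.122). A negative r at a permutation p under 0.05 was found for 5.84% of all tested pairs. Cut at their widest gap, the deviations of miR-125 gave 5 pools at -0.11 or below and 7 at 0.04 or above. A correlation over all pools is therefore given without being read as a relation. One of the 7 was dsRNA-GFP pool 1, whose value of 7.63 was 7.30 without its 2 bright spots. The latter lies under the lowest dsRNA-GFP value with all spots, 7.34, so its place among the 7 rests on those spots. Among the 7 upper pools, 4 dsRNA-Vg and 3 dsRNA-GFP, r was -0.85 with let-7 and -0.19 with miR-100. Both are descriptions that hold only with the bright spots kept in. By group, r with let-7 was 0.13 in dsRNA-Vg pools (exact permutation p = 0.738) and -0.85 in dsRNA-GFP pools (exact permutation p = 0.0431), and r with miR-100 was -0.94 (exact permutation p = 0.0306) and -0.53 (exact permutation p = 0.294).

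The bright spots on the array of dsRNA-GFP pool 1 entered that r. With bright spots left out, r between miR-100 and miR-125 was -0.30 (permutation p = 0.399), and with the median of the 18 spots it was -0.22 (permutation p = 0.541). For deposited values r of miR-125 was -0.39 with let-7 (permutation p = 0.252, rho -0.57, permutation p = 0.0747) and -0.22 with miR-100 (permutation p = 0.4934, rho -0.09, permutation p = 0.769). Without normalization between arrays both were positive, at 0.44 with let-7 (permutation p = 0.214, rho 0.38, permutation p = 0.253) and 0.60 with miR-100 (permutation p = 0.0745, rho 0.50, permutation p = 0.144), and both lay below the median of 0.74 over all pairs. No pair of members kept the sign of its r across the normalizations.

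**Figure D5:**
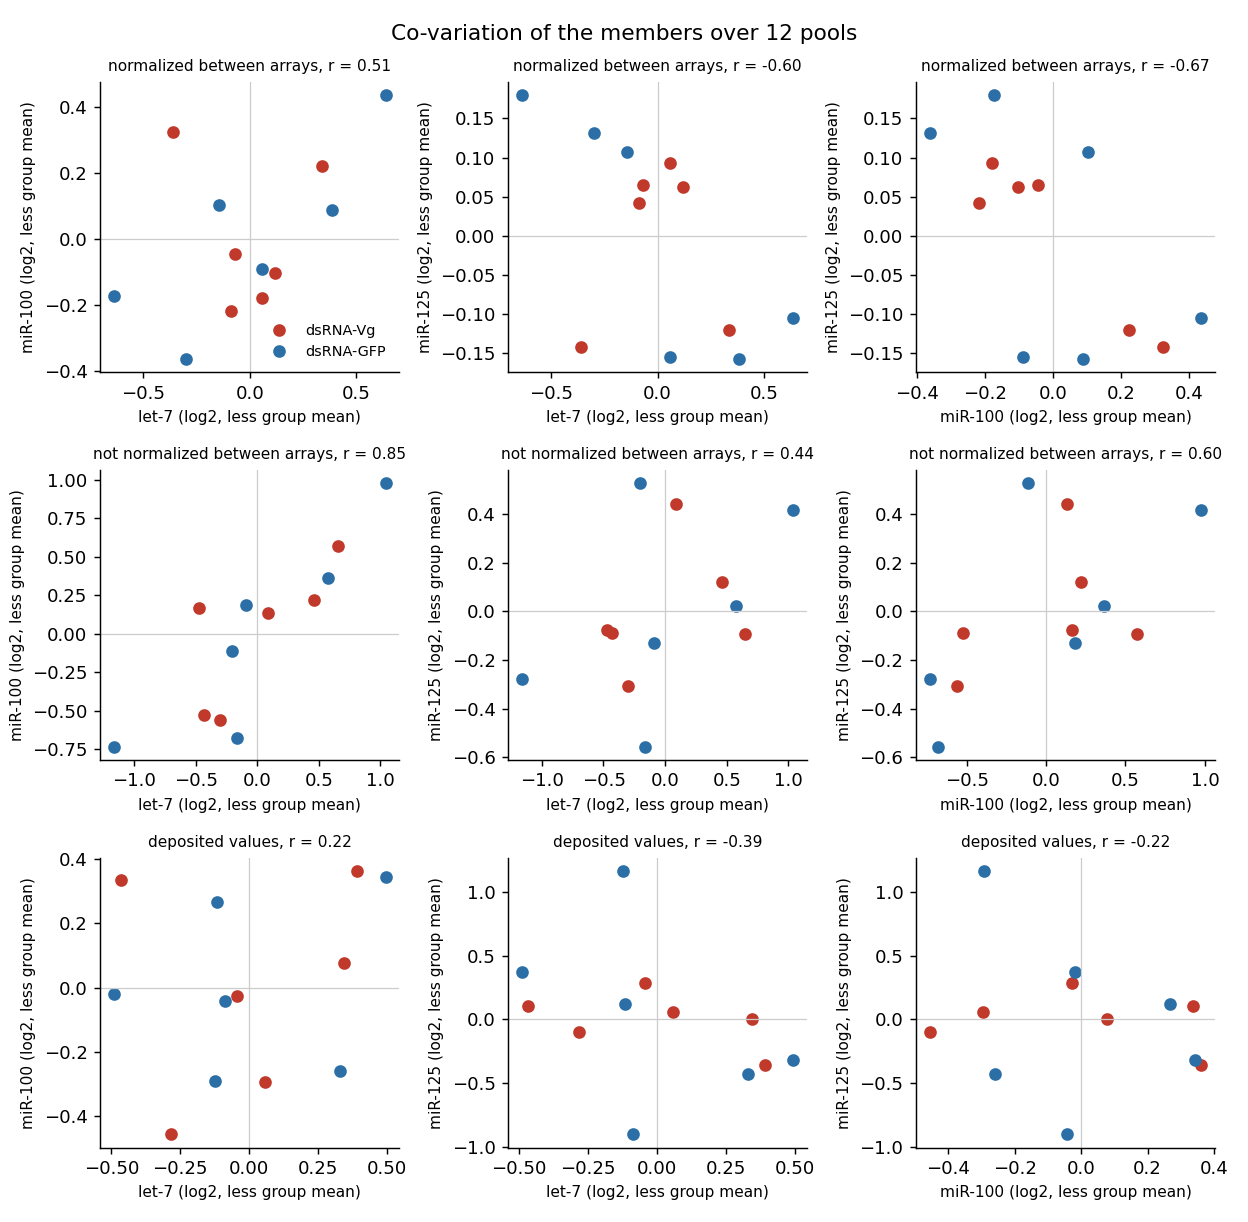
Co-variation of the 3 pairs of members over 12 pools (log2 values less their group mean), from normalized, unnormalized and deposited values in the upper, middle and lower row, with Pearson r above each panel. miR-125 has a negative r with both other members in the upper and lower rows and a positive r in the middle row.

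Array-wide measures were set against the members in the same way, as 9 further correlations of normalized values with the median of the empty spots, the number of detected probes and PUC2PM. The r with PUC2PM was 0.40 for let-7 (permutation p = 0.194, rho 0.31, permutation p = 0.321), -0.08 for miR-100 and -0.20 for miR-125. The r with the number of detected probes was -0.36 for miR-100 (permutation p = 0.283), -0.08 for let-7 and 0.12 for miR-125. With the empty spots r lay between -0.11 and 0.03 over all pools. Without dsRNA-Vg pool 1 and dsRNA-GFP pool 1, the farthest in empty spots, r with them was 0.52 for miR-100 (permutation p = 0.16), -0.57 for miR-125 (permutation p = 0.101) and 0.09 for let-7 (permutation p = 0.818). Spearman's rho lay between -0.48 and 0.31 over the 9. All 9 had an adjusted p of 0.918. With group means removed, these correlations say nothing about the group difference in PUC2PM, whose part in the results was not tested.

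The miRNAs most like each member in their pattern over the 12 pools were named by the highest r among the 34 other probes detected on all arrays, without a test. For let-7 these were miR-1 (0.72), miR-263 (0.71), which protects sensory bristles in the fly, and miR-375 (0.66). Their deposited values had an r with let-7 of 0.69, 0.49 and 0.61. For miR-100 they were miR-8 (0.70), miR-79 (0.69) and miR-3793 (0.63), with 0.49, 0.58 and 0.38 in the deposited table. For miR-125 they were miR-276 (0.63), miR-11 (0.57) and miR-278 (0.48), with 0.78, 0.79 and -0.18 in the deposited table. miR-8 and miR-276 are the brightest probes, which quantile normalization holds at fixed values that they exchange between pools, so their r with any miRNA are equal in size and opposite in sign. miR-100 ranked 6 of 34 among the partners of let-7, and let-7 ranked 13 of 34 among those of miR-100. miR-125 ranked 30 and 33 of 34, near the bottom of both lists.

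Of 7 other miRNAs tied to developmental timing and steroid hormones in insects, 0 passed the threshold in either direction (limma), beside 1.57% of the 127 tested. This list too was set with earlier results of these data known. The log2 fold changes of the 7 were positive for 3 and negative for 4, with a median of -0.01, as over all tested miRNAs. That median is the value of miR-8, which quantile normalization holds at fixed values. Normalized values of miR-2 were also nearly fixed, with an SD of 0 in dsRNA-Vg pools and 0.04 in dsRNA-GFP pools. The small differences of miR-8 and miR-2 are therefore not read as a measured lack of change. The unadjusted limma p was 0.0464 for miR-34, 0.0222 for miR-14, 0.0447 for miR-281, 0.00803 for miR-13a and 0.00518 for miR-13b. It was 0.547 for miR-2 and 0.933 for miR-8. miR-13a and miR-14 were dim, detected on 6 and 7 arrays. Mean normalized log2 intensities in dsRNA-Vg and dsRNA-GFP pools were 6.89 and 7.08 for miR-13a and 6.83 and 7.14 for miR-14. Those of miR-10, which failed the detection filter, were 6.77 and 6.87. Of all tested miRNAs, 14.2% had an unadjusted limma p under 0.05. miR-34, whose level drops under ecdysone in the fly, differed by 0.33 on the log2 scale (SE 0.15, limma adjusted p = 0.33). miR-14, which acts on the ecdysone receptor in the fly, differed by -0.31 (SE 0.12, limma adjusted p = 0.218). miR-281, which targets an ecdysone receptor isoform in the silkworm, differed by -0.46 (SE 0.20, limma adjusted p = 0.33). It is also 1 of the 3 midgut markers. The others were lower in dsRNA-Vg pools too, miR-750 by -1.89 (SE 0.99, limma adjusted p = 0.375) and miR-1175 by -1.17 (SE 0.67, limma adjusted p = 0.42). The part of midgut in the value of miR-281 was not tested. In the miR-2 family, which lowers the juvenile hormone response gene Kr-h1 in the cockroach, miR-13b had 0.33 (SE 0.10, limma adjusted p = 0.145), miR-13a -0.20 (SE 0.06, limma adjusted p = 0.155) and miR-2 0.02. miR-8, which ecdysone holds down in the fly, had -0.01. Of the relatives of miR-100, miR-993 differed by 0.11 (SE 0.06, limma adjusted p = 0.375), and miR-10 was not tested.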

How the data were processed

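LC Sciences hybridised poly(A)-tailed, Cy3-stained small RNA, per the labels' protocols. The scanner files that the authors deposited give a median pixel intensity for each of 3968 spots, 628 of them empty. In the value table, which has an intensity for each miRNA in each pool, the authors' background correction and scaling are not given in the sources used, and its log2 values were tested as they stand. Scanner intensities were corrected with normexp (limma 3.58.1, R 4.3.3, offset 50, fitted on all spots), log2 transformed, quantile normalized over miRNA spots and averaged over the 18 spots of a probe. Detection required 50% or more of a probe's spots to lie above the 95th percentile of empty spots on that array. Probes detected on at least 6 arrays were tested, which left out 41 of 168. Groups were compared with lmFit and eBayes, with Benjamini-Hochberg adjustment. Ratios were tested with two-sided exact permutations over the 12 pools, whose smallest p is 0.00216, and correlations with permutations within groups. The number of arrays limits the precision. Alternatives covered background, normalization, spots, filters, the replicate block and single pools left out. The fits were tested on simulated data. 0 pairs of arrays held identical values. The members and lists were chosen with earlier results of these data known. The miRNAs named were the members, the list of timing and steroid hormone miRNAs, miR-10 and miR-993, the nearest in pattern and in sequence, and tissue markers. The labels do not say what pools of the same number share, so the numbers were not taken as pairs. Such pools deviated together for 3 of 6 numbers (r -0.33 to 0.70), which does not settle whether they were pairs. With the number as a block, the ratio test flipped the signs of the 6 differences between pools of the same number. That has far fewer arrangements than the test over 12 pools. The difference in let-7 over miR-100 stayed at -0.41, with an exact sign-flip p of 0.125. The r of miR-100 and miR-125 over those 6 differences had an exact permutation p of 0.768.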

Additional observations from a re-analysis of the deposited data

Results flagged for a closer look

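Of 30 groups of 6 values checked, 3 held a pool far from the other 5, where chance gives about 1.5. The log2 ratio of let-7 to miR-100 was -0.76 in dsRNA-Vg pool 6, where the other dsRNA-Vg pools ran from -0.10 to 0.16. In the deposited table it was -1.02 in that pool, against -0.24 to 0.13. The coefficient of variation over the 18 spots of miR-125 was 43.3% in dsRNA-GFP pool 1, and 6.81% at most among the remaining pools of that group.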

How the results depend on the processing

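The count of called miRNAs, 2, was 1 with scaling to the array median, without normalization between arrays, with scaling to the probes detected on all arrays and with only those 35 probes tested, 3 with the replicate block, and 2 to 3 without single pools. The probe filters, the replicate block and the removal of bright spots could not change the estimate of let-7. The log2 fold change of let-7 kept its sign and stayed short of the threshold in all 26 alternatives (-0.46 to -0.20 without single pools). That of miR-100 was -0.12 with cyclic loess, -0.15 without normalization between arrays, -0.13 in the deposited table and -0.34 with scaling to the probes detected on all arrays (0.01 to 0.17 without single pools). That of miR-125 was -0.034 without normalization between arrays and -0.22 with that scaling, 0.56 with the empty-spot surface subtracted and 0.097 without background correction (0.18 to 0.25 without single pools). The difference in let-7 over miR-100 was -0.41 with cyclic loess (exact permutation p = 0.0519) and -0.38 with either scaling and without normalization (exact permutation p = 0.0649). The difference was -0.41 with the replicate block (exact sign-flip p = 0.125, a coarser test), and -0.51 to -0.28 without single pools. That in let-7 over miR-125 passed 0.05 at -0.70 with cyclic loess, -0.97 with the empty-spot surface subtracted, -0.60 with bright spots left out and -0.70 without dsRNA-GFP pool 3, was -0.95 in the deposited table, and was -0.70 to -0.39 without single pools. That in miR-100 over miR-125 was -0.42 with the surface, -0.40 in the deposited table, -0.30 with cyclic loess, and -0.23 to -0.02 without single pools.

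The r of let-7 and miR-100 was -0.15 with cyclic loess, 0.85 with scaling to the array median and without normalization, 0.63 with scaling to the probes detected on all arrays and 0.20 with the replicate block (0.23 to 0.79 without single pools). The r of let-7 and miR-125 was 0.46, 0.44 and 0.54 with scaling to the array median, without normalization and with scaling to the probes detected on all arrays, -0.70 with group means kept, -0.19 with the replicate block and -0.39 with bright spots left out (-0.83 to -0.45 without single pools). The r of miR-100 and miR-125 was 0.53, 0.60 and 0.76 in the same order. It was -0.39 with cyclic loess, -0.51 with the surface, -0.22 in the deposited table and with the median of spots, -0.30 with bright spots left out, -0.15 with the replicate block, -0.38 with group means kept and -0.52 by Spearman (-0.80 to -0.61 without single pools). The causes of these shifts were not tested. The scaling to always-detected probes and the removal of bright spots were chosen after seeing the data. The replicate block changed no other call, and 3 of 6 dsRNA-Vg pools correlated best with the dsRNA-GFP pool of their own number. Slide or scan as a block was not run, since the headers give neither. The signal over background limits miR-125 most.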
